A study of Homo sapiens with 24 samples.

Results

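The TNF superfamily ligands and the TNC locus were described here through the H3K27Ac regions that the authors' deposited tables place at 8 genes: TNFSF8, TNFSF15, TNC, TNFSF10, TNFSF9, TNF, LTB and TNFSF4. A region was taken when the table named one of these genes as overlapping it or as its left or right neighbour, and the intergenic regions in a span of chromosome 9 (GRCh38) around TNFSF15, TNFSF8 and TNC were added. This gave 67 of the 171345 regions in 6 tables: 45 in the 2 tables that compare shANCO1 with shCTRL cells (26 in 10A and 19 in DCIS) and 22 in the 4 tables that compare immunoprecipitated DNA with input. The genes were chosen from results of these same comparisons, TNFSF8 for its large change in 10A, so the counts and changes below are a description of them and not a test.

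10A is MCF10A, an immortalized, non-malignant human mammary epithelial line that lacks the estrogen and progesterone receptors, and DCIS is MCFDCIS, a model of early triple-negative ductal carcinoma in situ. In each line, cells infected with a lentivirus for a short hairpin against ANCO1 (ANKRD11, an ankyrin-repeat protein that holds back transcriptional coactivators) were compared with cells infected with a control hairpin, labelled shCTRL and described in the labels as directed at GFP, so every library came from infected cells, which the study selected with puromycin. Each of the 8 groups had 3 libraries, 12 of H3K27Ac and 12 of input, 24 in all, and the study used 1 of its ANCO1 hairpins for this assay. No label says that the 3 libraries of a group came from separate cultures, so the FDR values measure only the spread between these libraries, and the hairpin's effect on ANCO1 itself is not measured by H3K27Ac.

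Ligands of the TNF superfamily are made as trimers on the cell surface or in soluble form and bind receptors that pass the signal to TRAF adaptors, to NF-κB or, through death domains, to caspases. Many of them are known from lymphocytes and antigen-presenting cells, and epithelial cells can express several, TRAIL among them. Tenascin-C, the product of TNC, is a large extracellular matrix glycoprotein that is scarce in most resting adult tissue and rises in wound beds and tumour stroma. H3K27Ac, the acetylation of a lysine on the tail of histone H3, marks active promoters and enhancers.

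Against the whole tables, 21913 of 50284 regions in 10A (43.6%) had higher H3K27Ac in shANCO1 cells at an FDR under 0.05 and 113 (0.225%) had lower, while in DCIS 10567 of 44790 (23.6%) were higher and 2175 (4.86%) lower. The zero of each table rests on a normalization that is not given in the sources used here, and the median log2 fold change over all regions was 0.76 in 10A and 0.52 in DCIS, so each change is also read against that median. Depth per library is unknown, because the tables give 1 value per region for whole groups. Among marker genes, 4 of 4 epithelial genes (CDH1, EPCAM, KRT8, KRT18) were enriched over input in all 4 groups, as were 5 of 7 basal genes in 10A and 6 of 7 in DCIS (KRT14 in none, KRT17 in DCIS alone). Of the immune genes, PTPRC, CD3E and ITGAM were enriched in no group, CD79A in every group, and CD14 in every group except 10A shCTRL. PECAM1 and CDH5 of 3 endothelial genes were enriched in every group, and from 0 to 2 of 3 fibroblast genes in each group. These marker counts rest on the genes the tables name for a region, which can lie nearer to another gene.

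Sequences are shown for the regions the results turn on, since most of these lie away from promoters and are known by their position alone. None of the segments overlaps an exon of the 8 genes in GENCODE. All are the plus strand of GRCh38, 5′ to 3′, in lower case. Capitals mark a match to one of the motifs searched on both strands: AP-1 (TGACTCA or TGAGTCA), TEAD (CATTCC, read on this strand as GGAATG), STAT3 (TTCCNGGAA) or the NF-κB consensus. In windows of 300 bp at the midpoint of all regions, such a match was present in 11.1%, 18.0%, 1.13% and 4.8% of 10A regions and in 9.4%, 17.4%, 1.08% and 5.44% of DCIS regions, in that order. The 10A region at TNFSF8 is shown where it was enriched over input (chr9:114894201-114894400), the DCIS region at TNFSF8 at its centre (chr9:114908651-114908950), and the DCIS region at TNFSF15 upstream of the start site (chr9:114806040-114806300). The TNC segment lies in the intronic region raised in both lines (chr9:115116351-115116650), the TNFSF10 segment in the intronic region raised in DCIS (chr3:172516770-172517069), and the TNFSF9 segment downstream of the gene where H3K27Ac was enriched in 3 of the 4 groups (chr19:6538001-6538200).
TNFSF8 10A: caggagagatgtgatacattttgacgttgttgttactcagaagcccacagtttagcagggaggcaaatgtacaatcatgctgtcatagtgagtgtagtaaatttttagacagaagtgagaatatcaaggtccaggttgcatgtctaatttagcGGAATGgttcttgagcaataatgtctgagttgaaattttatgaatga
TNFSF8 DCIS: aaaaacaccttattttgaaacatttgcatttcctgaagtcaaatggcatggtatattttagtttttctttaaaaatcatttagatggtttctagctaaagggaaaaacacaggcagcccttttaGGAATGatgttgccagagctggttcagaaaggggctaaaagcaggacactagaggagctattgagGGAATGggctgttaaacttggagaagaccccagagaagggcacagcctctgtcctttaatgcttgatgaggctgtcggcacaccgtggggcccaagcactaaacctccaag
TNFSF15 upstream: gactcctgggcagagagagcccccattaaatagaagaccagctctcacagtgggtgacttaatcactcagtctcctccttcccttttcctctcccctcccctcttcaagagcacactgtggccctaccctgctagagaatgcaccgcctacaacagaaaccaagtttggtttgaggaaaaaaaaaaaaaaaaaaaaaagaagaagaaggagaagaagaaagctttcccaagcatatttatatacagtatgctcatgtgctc
TNC shared: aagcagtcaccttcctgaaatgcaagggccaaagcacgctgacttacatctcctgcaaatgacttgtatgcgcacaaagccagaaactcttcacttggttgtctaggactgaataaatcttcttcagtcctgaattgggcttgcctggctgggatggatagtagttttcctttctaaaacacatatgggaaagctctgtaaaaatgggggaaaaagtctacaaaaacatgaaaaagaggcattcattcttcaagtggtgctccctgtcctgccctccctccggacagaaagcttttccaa
TNFSF10 DCIS: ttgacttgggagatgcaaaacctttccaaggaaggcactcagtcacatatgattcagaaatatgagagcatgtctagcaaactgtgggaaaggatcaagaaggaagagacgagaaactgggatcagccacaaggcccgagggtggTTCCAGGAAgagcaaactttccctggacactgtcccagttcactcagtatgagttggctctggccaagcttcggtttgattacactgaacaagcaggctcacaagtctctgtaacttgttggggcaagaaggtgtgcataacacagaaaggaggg
TNFSF9 downstream: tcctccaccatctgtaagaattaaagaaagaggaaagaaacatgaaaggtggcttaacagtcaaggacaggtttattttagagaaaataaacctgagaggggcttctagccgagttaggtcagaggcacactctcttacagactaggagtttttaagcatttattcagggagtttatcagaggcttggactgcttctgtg
Both TNFSF8 segments carried a TEAD match, 1 in the 10A segment and 2 in the DCIS segment. The TNFSF10 segment was centred on a STAT3 match found in its region, so that match was fixed by the choice of segment. The TNFSF15, TNC and TNFSF9 segments held none of the 4 motifs. The shares above are for 300 bp at region midpoints. Only the TNFSF8 DCIS segment is such a window, so they are no background for the others. The GC content of the 6 segments ran from 38.0% in TNFSF8 10A to 48.3% in TNFSF10 DCIS.

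Over all regions at the 8 genes, 8 of 26 were higher in shANCO1 cells in 10A (30.8%, against 43.6% of all regions) and 8 of 19 in DCIS (42.1%, against 23.6%). None was lower at an FDR under 0.05 in either line, against 0.225% and 4.86% of all regions. The median log2 fold change of the regions was 0.54 in 10A and 1.09 in DCIS, the first below and the second above the medians of their tables, and 11 of 26 and 15 of 19 regions lay above those medians. A margin of at least 1 log2 unit above the median was reached by 1 region in 10A and 6 in DCIS, while 1.14% and 16.5% of all regions reached it. The regions were short, with a median width of 600 bp in 10A and 700 bp in DCIS beside 1000 bp and 900 bp over all regions.

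**Figure D1:**
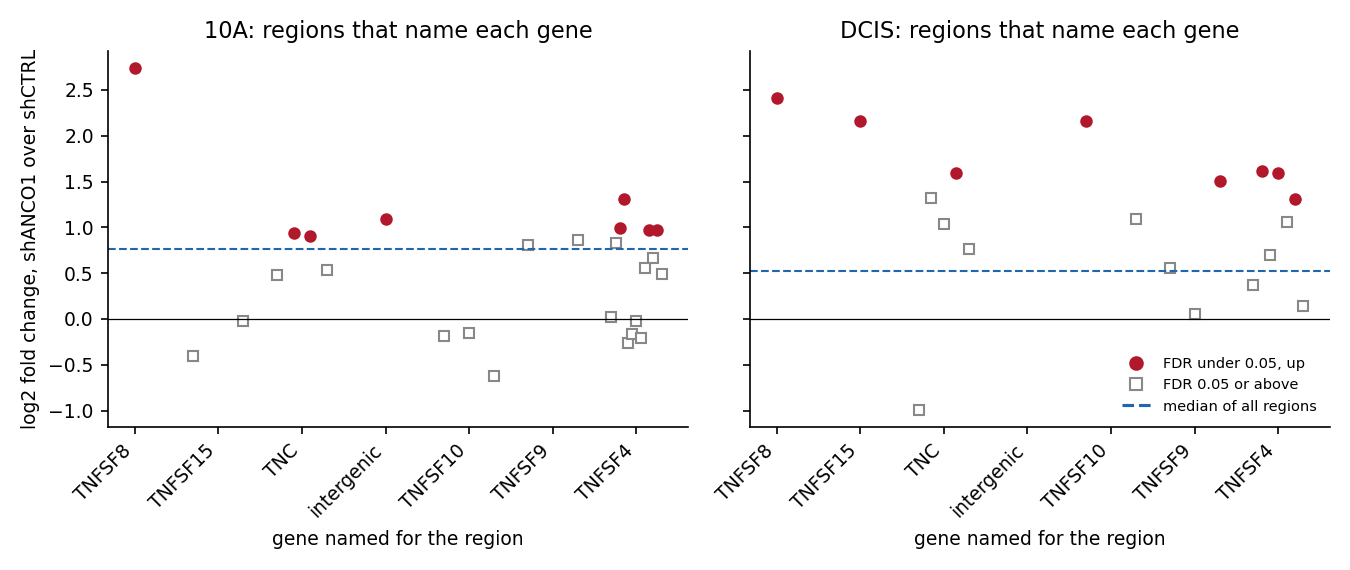
Log2 fold change of H3K27Ac, shANCO1 over shCTRL (y axis), for each region named for a gene (x axis), in 10A (left) and DCIS (right). Each point is 1 region of the deposited table, filled red where FDR is under 0.05, and the dashed line is the median of all regions of the line, 0.76 or 0.52. The TNFSF8 region of 10A stands alone at 2.74, and in DCIS TNFSF8, TNFSF15 and TNFSF10 each have a region above 2.

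The chromosome 9 locus holds TNFSF15, TNFSF8 and TNC side by side, all on the minus strand, so that transcription runs toward lower coordinates. It had 8 regions in 10A, of which 4 were higher in shANCO1 cells, and 7 in DCIS, of which 3 were higher (42.9%). On chromosome 9 as a whole, 854 of 1997 regions (42.8%) were higher in 10A and 418 of 1778 (23.5%) in DCIS. The median log2 fold change of the locus was 0.72 in 10A, close to the median of all regions, and 1.32 in DCIS.

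TNFSF8 encodes CD30 ligand, which binds the receptor CD30 on activated lymphocytes. Its H3K27Ac in 10A shANCO1 cells was higher by a log2 fold change of 2.74, or 1.98 above the median of the table, at chr9:114893801-114895700 (FDR = 7.56e-09). All 14 windows of this 1900 bp region were counted as up, and only 3 of 50284 regions in 10A, itself included, had so high a log2 fold change. The region does not lie at the promoter: it lies 34.9 kb from the start site of the canonical transcript and 5.4 kb past that transcript's 3′ end, over a 3′ exon of a longer TNFSF8 transcript (364 bp, of which 83 bp coding), and it is also inside an intron of the long noncoding gene DELEC1. Within it, 200 bp (1 window, 10.5% of the region) was enriched over input in 10A shANCO1 cells (log2 over input of 2.68, FDR = 4.65e-09). That value was -0.71 against the median of all regions enriched in 10A shANCO1 cells. No region was enriched there in 10A shCTRL cells or in either DCIS group.

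In DCIS, no region touched that position, and TNFSF8 instead had a 400 bp region in an intron 12.9 kb away, at chr9:114908601-114909000. H3K27Ac there was higher in shANCO1 cells by a log2 fold change of 2.42 (FDR = 4.38e-05), with 3 of 3 windows up, and 4.26% of all DCIS regions had so high a value. It was not enriched over input in shANCO1 or shCTRL cells, and 10A had no region there. The TNFSF8 start site itself had no region in either line. The nearest was 21.6 kb away in DCIS, the intronic region just described, and 27.4 kb upstream in 10A. The latter was the intergenic region chr9:114958001-114958600, which GENCODE draws as a DELEC1 intron, and it had 1.09 on the same scale (FDR = 0.0287) and 1 of 5 windows up.

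The edge of the span that defined the locus had a large value just outside it. An intergenic region 16.1 kb below the span had a log2 fold change of 4.24 in DCIS (chr9:114733401-114733900, FDR = 1.76e-10), and the matching region in 10A had 0.89 (FDR = 0.125). In 10A shANCO1 cells the same place was enriched over input (3.85, FDR = 9.92e-11), and it lies beyond the 3′ end of TNFSF15, 72.5 kb from its start site. These values are given as a description of the limits of the chosen span, and the region inside the span nearest to this edge that names no gene is the one upstream of TNFSF8.

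TNFSF15 encodes TL1A, a ligand of the death-domain receptor DR3 best known from endothelial cells. In DCIS, the region over its start site (chr9:114805701-114806300) was higher in shANCO1 cells by a log2 fold change of 2.16 (FDR = 1.73e-05). All 5 of its 5 windows were up, and 6.46% of all regions were as high. In 10A, the region over the same start site (chr9:114805601-114806200) had a log2 fold change of -0.02 (FDR = 0.967), and a second region in the 3′ untranslated part of the gene had -0.40 (FDR = 0.466). None of the 4 groups had a region enriched over input at TNFSF15. The nearest one was 72.5 kb away in 10A shANCO1 cells and 217.6 to 217.7 kb away in the other groups, at ATP6V1G1.

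TNC had 4 regions in 10A and 5 in DCIS. The region raised in both lines lay just over 1 kb from the start site, in an intron in GENCODE, although the deposited annotation gives the 10A region as reaching an exon. In 10A it spanned chr9:115115001-115116700 and was higher by 0.90 on the log2 scale (FDR = 0.0366, 7 of 13 windows up), and in DCIS chr9:115116301-115116900 with 1.59 (FDR = 0.0305, 3 of 4 windows up), with 400 bp shared. Next to the start site itself (chr9:115118301-115119000 in both lines) the log2 fold change was 0.53 in 10A (FDR = 0.262) and 0.76 in DCIS (FDR = 0.0675), short of the threshold in each. A 300 bp stretch of that region was enriched over input in DCIS shANCO1 cells alone (4.81, FDR = 1.16e-12).

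A second intronic TNC region in 10A, chr9:115036401-115036800, was higher by 0.94 (FDR = 0.0254, 3 of 3 windows up). Its neighbour from 115035701 to 115036100 had 0.48 (FDR = 0.589). DCIS had no region at either place. It had intronic regions at chr9:115104501-115106100 (1.32, FDR = 0.126) and chr9:115115201-115115900 (1.03, FDR = 0.318), neither past the threshold. The second of these lies inside the raised 10A region chr9:115115001-115116700 and shares 700 bp with it. That is more than the 400 bp shared by the DCIS region that was raised. The only region of the locus with a negative log2 fold change in DCIS lay over an exon (271 bp) and the introns beside it, at chr9:115057901-115060000, with -0.99 (FDR = 0.494). Of this region's 19 windows, 0 counted as up and 0 as down. It held the only TNC region enriched over input in DCIS shCTRL cells (chr9:115058601-115059000, 4.37, FDR = 7.01e-11), which was not enriched in DCIS shANCO1 cells.

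**Figure D2:**
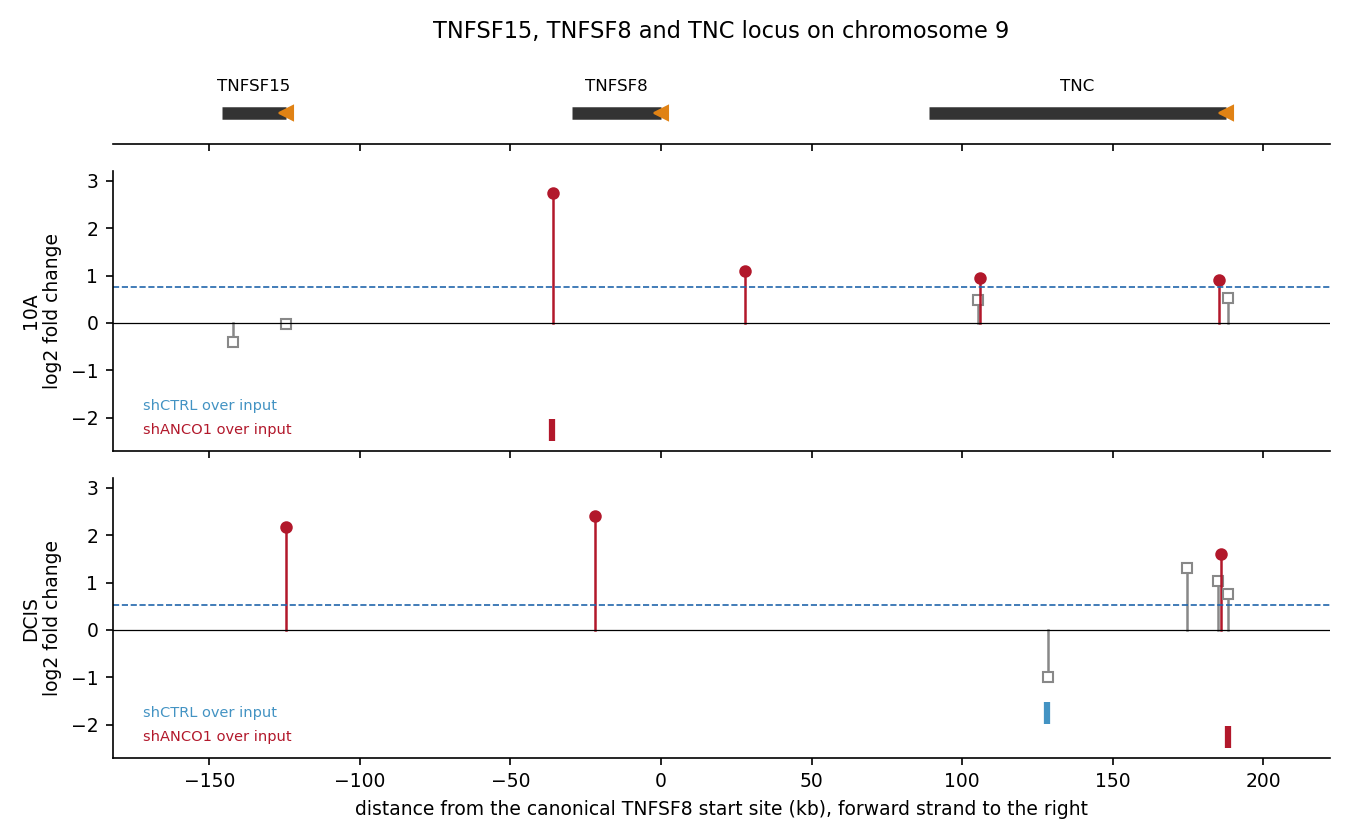
H3K27Ac changes along the chromosome 9 locus in 10A (middle) and DCIS (bottom), with gene bodies and start sites (arrowheads) above. The x axis is distance from the canonical TNFSF8 start site in kb, the y axis the log2 fold change of shANCO1 over shCTRL, each stem 1 region (filled where FDR is under 0.05), the dashed line the median of the table, and the bars at the foot regions enriched over input. The TNFSF8 regions of the lines stand 12.9 kb apart, and the TNFSF15 start site is at -0.02 in 10A and 2.16 in DCIS.

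TNFSF10 encodes TRAIL, the ligand of the death receptors DR4 and DR5. Its region in DCIS at chr3:172516501-172517500, intronic in GENCODE and exonic in the deposited annotation, was higher in shANCO1 cells by a log2 fold change of 2.17 (FDR = 0.00129), with 7 of 7 windows up and 6.43% of all regions as high. The region over the TNFSF10 start site in DCIS (chr3:172523201-172523500) reached 1.09 on the log2 scale, short of the threshold (FDR = 0.101). In 10A all 3 regions had negative values: -0.19 (FDR = 0.749) and -0.16 (FDR = 0.916) where they overlap the DCIS intronic region, and -0.62 (FDR = 0.396) over the start site. On chromosome 3, 33.1% of DCIS regions were higher in shANCO1 cells and the median log2 fold change was 0.79, both above the values of the whole table. TNFSF10 had no region enriched over input in any group, and the nearest was 39.1 to 39.3 kb away, at LINC02068, in 3 groups and 227.3 kb away in DCIS shCTRL cells.

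TNFSF9 encodes 4-1BB ligand, which costimulates T cells through the receptor 4-1BB. Unlike the genes above, it was enriched over input in every group. The region over its start site had a log2 fold change of 0.81 in 10A (chr19:6530101-6531800, FDR = 0.158) and 0.56 in DCIS (chr19:6530201-6531800, FDR = 0.807), both near the medians of their tables. A region downstream of the gene had 0.86 in 10A (chr19:6537201-6539100, FDR = 0.0626, 1 of 16 windows up) and was higher by 1.51 in DCIS (chr19:6537301-6539400, FDR = 0.000474, 9 of 20 windows up). One more region, in DCIS alone at chr19:6536501-6536900, had a log2 fold change of 0.06 (FDR = 0.982). On chromosome 19, 16.4% of DCIS regions were higher in shANCO1 cells, with a median log2 fold change of 0.33.

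Enrichment over input at TNFSF9 covered more bases in shANCO1 than in shCTRL cells, 900 against 200 bp in 10A and 1100 against 300 bp in DCIS. Over the whole tables, shANCO1 cells also had more enriched regions, 28607 against 15490 in 10A and 16692 against 15480 in DCIS. Enriched bases over the whole tables were not counted. Upstream of the start site, the log2 value over input was 2.35 in 10A shANCO1, 3.06 in DCIS shCTRL and 3.49 in DCIS shANCO1 cells, and 10A shCTRL had no enriched region. Read against the median over all regions of its own group, these were -1.05, -1.03 and -0.99, in that order. Downstream, the log2 value over input was 2.35 in 10A shCTRL and 3.77 in 10A shANCO1 cells, and 4.21 and 3.36 in a pair of regions in DCIS shANCO1 cells, with none in DCIS shCTRL. Against the same medians, these were -0.97, 0.37, -0.26 and -1.12. The shANCO1 libraries enter both kinds of table, and the difference between groups in enriched bases was not tested.

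TNFSF4 encodes OX40 ligand, a costimulator of T cells, and gave the most regions, 13 in 10A and 7 in DCIS. Few of them are in the gene as GENCODE draws it (chr1:173183731-173207331): 1 in each line, with log2 fold changes of 0.02 in 10A (FDR = 0.968) and 0.37 in DCIS (FDR = 0.765). The others lie 61.8 to 270.5 kb upstream of the TNFSF4 start site, and 3 of them in 10A and 2 in DCIS are within 5 kb of the start site of PRDX6, a peroxidase gene. The deposited annotation draws TNFSF4 far longer than GENCODE does and lists most of them as intronic. Every TNFSF4 region that passed the threshold was among these distant ones, so that no call named for TNFSF4 falls in the GENCODE gene.

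Of the distant regions, 4 were higher in shANCO1 cells in 10A. Their log2 fold changes were 0.99 at chr1:173329701-173332300 (FDR = 0.0191), 1.31 at chr1:173392801-173393800 (FDR = 0.0112), 0.97 at chr1:173429201-173431100 (FDR = 0.00258) and 0.97 over the PRDX6 start site at chr1:173475301-173477900 (FDR = 0.00147). In DCIS, 3 were higher, with 1.61 at chr1:173330801-173331100 (FDR = 0.00791), 1.59 at chr1:173425201-173425800 (FDR = 0.0212) and 1.30 at chr1:173473901-173474100 (FDR = 0.0351). The first of each line share 300 bp, and that is the only pair at TNFSF4 higher in both. Over the PRDX6 start site the DCIS region had 0.14 (FDR = 0.96).

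**Figure D3:**
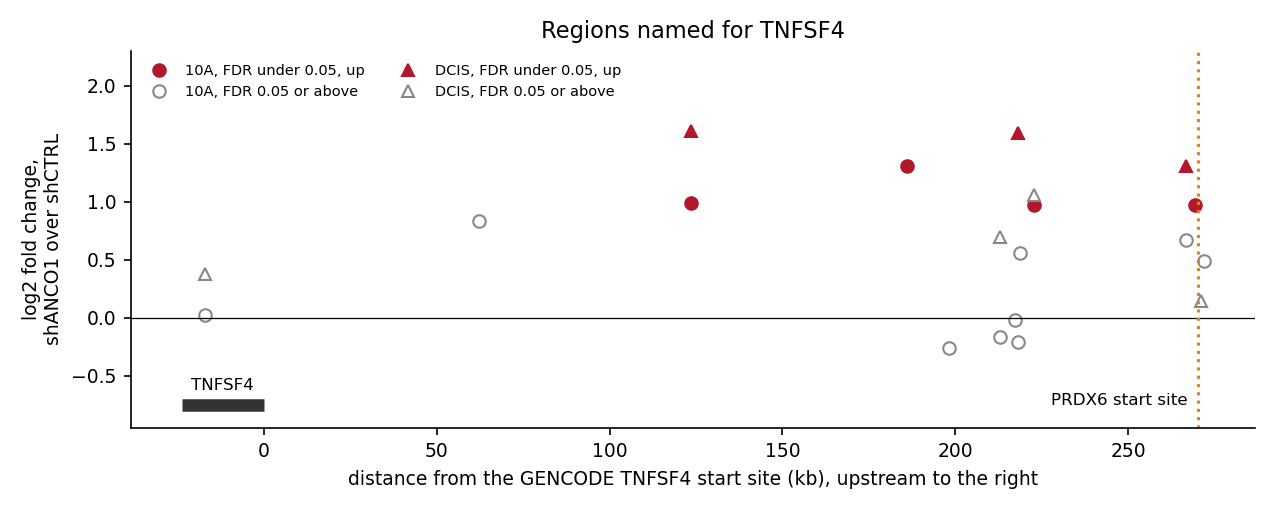
Log2 fold change of H3K27Ac, shANCO1 over shCTRL (y axis), of the regions named for TNFSF4 against distance in kb from the GENCODE TNFSF4 start site (x axis, upstream to the right). Circles are the 13 regions of 10A and triangles the 7 of DCIS, filled where FDR is under 0.05. The bar is the GENCODE gene, which holds 1 region of each line, and the dotted line is the PRDX6 start site.

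Regions enriched over input covered more bases in shANCO1 than in shCTRL cells at TNFSF4 as well. Over the whole tables, shANCO1 cells also had more enriched regions, 28607 against 15490 in 10A and 16692 against 15480 in DCIS. At TNFSF4 in 10A there were 6 with 4800 bp in shANCO1 and 2 with 700 bp in shCTRL cells. In DCIS there were 2 with 1600 bp and 2 with 1000 bp. The value over input did not always follow: from 173430201 it was 6.63 in 10A shCTRL cells, while the overlapping region of 10A shANCO1 cells had 3.53, although H3K27Ac was higher by 0.97 in the direct comparison there. Each value is that of 1 representative window of its own region, and these can differ between tables. The highest value over input at TNFSF4 was 7.27, in 10A shANCO1 cells at chr1:173329801-173330300, where no shCTRL region was enriched. This stretch lies inside the 10A region of the pair raised in both lines, but outside the bases shared with DCIS. The DCIS region of that pair was enriched over input in neither DCIS group.

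TNF and LTB encode tumour necrosis factor and lymphotoxin-β, and sit beside each other on chromosome 6 (chr6:31575565-31578336 and chr6:31580525-31582522). They were not analysed here: the tables used hold no region from 31197600 to 33552701, a stretch of 2.36 Mb, in any group. The gap around these genes is 5.06 to 5.18 Mb wide in 5 of the tables and 2.37 Mb in the direct table of DCIS, so its emptiness is not a measurement of H3K27Ac at TNF or LTB. Its cause was not tested.

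Counted over the 4 tables against input, in which 100.0% of regions were enriched in each table at an FDR under 0.05 (28607 of 28607 in 10A shANCO1, 15490 of 15490 in 10A shCTRL, 16692 of 16692 in DCIS shANCO1 and 15480 of 15482 in DCIS shCTRL), the 8 genes had 9 enriched regions in 10A shANCO1, 3 in 10A shCTRL, 6 in DCIS shANCO1 and 4 in DCIS shCTRL cells. TNFSF8 was enriched in 10A shANCO1 alone, TNC in both DCIS groups at different places, TNFSF9 and TNFSF4 in all 4 groups, and TNFSF15 and TNFSF10 in none. Of the 8 raised regions in 10A, 4 overlapped a region enriched in shANCO1 cells, 2 a region enriched in shCTRL cells, and 4 no enriched region. In DCIS, 7 of the 8 raised regions overlapped no enriched region, the exception being the one downstream of TNFSF9. Of all raised regions, 70.0% in 10A overlapped a region enriched in shANCO1 cells, 34.6% one enriched in shCTRL cells and 29.9% none, and in DCIS 61.5% overlapped none. TNFSF8, TNFSF15 and TNFSF10 in DCIS, with the highest log2 fold changes, are among those 7.

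**Figure D4:**
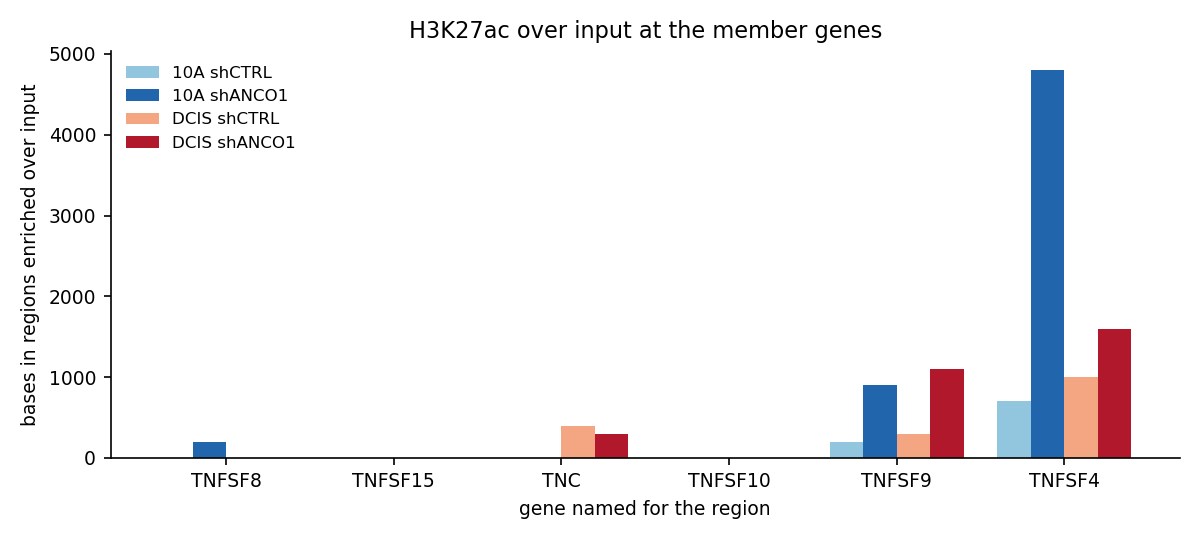
Bases in regions enriched over input (y axis) at each gene named for the regions (x axis), with 1 bar per group and each bar the sum over its regions. TNFSF4 in 10A shANCO1 cells has 4800 bp and in 10A shCTRL cells 700 bp, and TNFSF15 and TNFSF10 have no bar in any group.

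Between the lines, 17 pairs of overlapping regions could be set side by side. H3K27Ac was higher in shANCO1 cells in both lines in 2 pairs (TNC near the start site, and TNFSF4 far upstream), in 10A alone in 3, in DCIS alone in 6 and in neither in 6. The log2 fold change was higher in DCIS in 14 of 17 pairs (82.4%), beside 15594 of 33865 (46.0%) over all overlapping pairs of the tables. The pairs are not separate measurements, since 3 regions, at TNFSF10, TNFSF4 and TNC, enter more than 1 pair. The widest gaps were at TNFSF10 and TNFSF15, where DCIS had 2.17 and 2.16 and 10A had values from -0.19 to -0.02 in the regions that overlap. TNFSF9 at its start site and the PRDX6 start site had higher values in 10A. Of the raised regions of each line, 2 of 8 (25.0%) overlapped a raised region of the other. Over all raised regions this share was 22.8% in 10A and 49.5% in DCIS. The lines come from separate tables, and no test compared them.

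**Figure D5:**
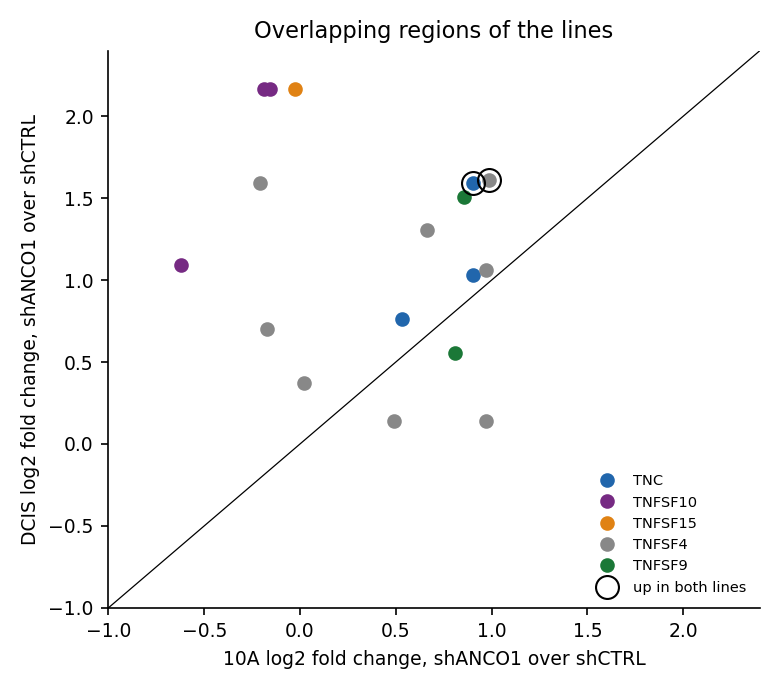
Log2 fold change of shANCO1 over shCTRL in DCIS (y axis) against 10A (x axis) for the 17 pairs of overlapping regions, coloured by gene, with the line of equal values. The 14 points above the line are higher in DCIS, and the circled points, at TNC and TNFSF4, are the 2 pairs raised in both lines.

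Receptors of the superfamily were listed as 17 genes, which include receptors of ligands other than the 8 genes, such as FAS and TNFRSF12A. A region was present at 13 of them in each line, and 11 in 10A and 6 in DCIS had at least 1 region higher in shANCO1 cells, with none lower. Over all genes named in the tables, 74.3% in 10A and 32.2% in DCIS had at least 1 such region. By regions, 26 of 45 were higher in 10A (57.8%, against 43.6% of all regions) and 11 of 41 in DCIS (26.8%, against 23.6%), and the median log2 fold changes of 0.82 and 0.72 stood beside table medians of 0.76 and 0.52. TNFRSF8, which encodes CD30, the receptor of the TNFSF8 product, had no raised region in either line: of its 2 regions, that with the lower FDR had 0.90 in 10A (FDR = 0.0839) and 0.86 in DCIS (FDR = 0.398). For TNFRSF25, which encodes the TL1A receptor DR3, the only region was higher in 10A (1.51, FDR = 0.000953) and had 0.25 in DCIS (FDR = 0.785). In each line this region was 1 window that overlaps PLEKHG5 and names TNFRSF25 only as a neighbour.

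The receptor genes of lowest FDR in 10A were TNFRSF10C, a TRAIL receptor without a death domain (1.903, FDR = 1.44e-07), TNFRSF10A, the death receptor DR4 (1.501, FDR = 5.01e-05), and TNFRSF6B, a soluble receptor of TL1A and Fas ligand (1.02, FDR = 6.04e-05). In DCIS they were TNFRSF10D, another TRAIL receptor with no working death domain (1.89, FDR = 0.000167), TNFRSF6B (2.11, FDR = 0.00102) and TNFRSF10C (1.97, FDR = 0.00131). TNFRSF10D came lower in that order in 10A (0.79, FDR = 0.000495), and TNFRSF10A in DCIS had 1.08 (FDR = 0.0721). Genes given in this order are high by that choice. In each line the TNFRSF10C region overlaps an intron of LOC254896 and names TNFRSF10C only as a neighbour.

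Adaptors and effectors downstream of these receptors all had regions, and at least 1 was higher in shANCO1 cells for 14 of 15 genes in 10A and for 7 in DCIS, where 74.3% and 32.2% of all genes had one. By regions, 42 of 68 in 10A (61.8%, against 43.6% of all regions) and 19 of 49 in DCIS (38.8%, against 23.6%) were higher and none was lower. These genes had from 1 to 20 regions each in 10A and from 1 to 8 in DCIS, while the median over all genes was 2 in both lines. In DCIS the leading genes were CFLAR, the inhibitor of caspase-8 activation (3.02, FDR = 1.62e-11), TNIP1, a partner of the NF-κB inhibitor A20 (2.62, FDR = 1.75e-09), and TRAF2 (2.08, FDR = 1.01e-08). In 10A they were BIRC2 and BIRC3, inhibitors of apoptosis that share 1 region (1.52, FDR = 4.5e-07), and TNIP1 (0.88, FDR = 9.23e-07). The shared region overlaps the BIRC2 promoter and names BIRC3 only as a neighbour.

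Among the other ligands of the superfamily, 6 of 11 genes had a region in each line. In 10A, 5 of them had a region that was higher, 8 of 12 regions (66.7%, against 43.6% of all regions), and in DCIS 1 gene had one, 2 of 9 regions (22.2%, a share near the 23.6% of all regions). That gene was CD70, the ligand of CD27, with 4 of 4 regions higher in 10A (1.55 at the lowest FDR, 0.000133) and 2 of 3 in DCIS (2.41, FDR = 4.71e-05). The CD70 regions with these values overlap no annotated gene. FASLG, the Fas ligand, had 1.16 in 10A (FDR = 0.00312), and EDA, ectodysplasin, 1.07 (FDR = 0.0167) in a region of 1 window. The EDA region overlaps AWAT2 and names EDA only as a neighbour. TNFSF12 and TNFSF13 were both counted in 10A from the same raised region (0.93, FDR = 0.0391). Other tenascins and receptors of tenascin-C had 64 of 110 regions higher in 10A (58.2%, against 43.6%) and 34 of 84 in DCIS (40.5%, against 23.6%), and in DCIS 6 of 84 lower (7.14%, against 4.86%). In DCIS the subunit ITGB1 had a region higher by 5.35 (FDR = 2.56e-10), with 11 of 13 of its regions higher in each line, while the 6 lower regions were all at the integrin subunit ITGA9, whose region of lowest FDR had -2.08 (FDR = 3.57e-06). The proteoglycan SDC4 had 2.05 in DCIS (FDR = 0.000234), and in 10A the leading genes were ANXA2 (1.41, FDR = 3.05e-06), ITGB1 (1.12, FDR = 5.84e-06) and ITGAV (1.13, FDR = 6.05e-05).

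Matches to the 4 motifs were sought in 500 bp around the centre of every region at the 8 genes. This window runs past the ends of shorter regions, so a counted match can lie outside the region. The AP-1 match counted for the raised 10A region chr9:115036401-115036800 at TNC is such a case. In 10A, the window held an AP-1 match for 5 of 26 regions (19.2%, against 18.3% of all regions) and a TEAD match for 8 (30.8% against 27.9%). It held an NF-κB match for 2 (7.69% against 7.71%) and a STAT3 match for 3 (11.5% against 1.9%). In DCIS the counts of 19 were 4 for AP-1 (21.1% against 15.4%), 4 for TEAD (21.1% against 27.1%), 1 for NF-κB (5.26% against 8.59%) and 2 for STAT3 (10.5% against 1.78%). The STAT3 matches in DCIS lie in the TNFSF10 intron and next to the TNC start site. The overlapping 10A regions hold the same matches, so the STAT3 counts of the lines are not separate. Among the raised regions, the window held an AP-1 match for 4 of 8 in 10A and 0 of 8 in DCIS. It held a TEAD match for 4 and 2, a STAT3 match for 0 and 1, and an NF-κB match for 1 and 0. These are matches of letters in a handful of regions, and the shares were not tested.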

How the data were processed

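H3K27Ac ChIP-seq and input libraries of 10A and DCIS cells were described from 6 deposited region tables. According to the study's methods and the submitters' processing notes, the authors checked paired-end reads with FastQC, aligned them to GRCh38 with BWA and Rsubread, sorted and deduplicated them with SAMtools, tested sliding windows with csaw and annotated regions with ChIPpeakAnno. HOMER is also listed. Each row of a deposited table is a region of merged windows with the log2 fold change of a representative window. It also has a p-value and an FDR over the table, both as the authors gave them, and the numbers of windows tested, up and down. The FDR, and so every call, is the authors' own. The tables hold comparisons of whole groups, so no per-library value, replicate spread, depth or refitted test could be had. Window size, normalization and the rule by which a window counts as up are not given in the sources used here.

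Regions were chosen by the names in the annotation columns and the span on chromosome 9, and called at an FDR under 0.05 in the direction the table gives. Each log2 fold change was also read against the median of its table. Positions were compared with GENCODE release 44 on GRCh38, and no region ran past a chromosome end of that build. Overlaps needed at least 1 bp. Motifs were counted in 500 bp at region midpoints. Named were all 8 genes, for each and each line the region with the lowest FDR and the one nearest the start site, and of each list of pathway genes (receptors, adaptors and effectors, other ligands, tenascins with tenascin-C receptors, chromosome 9 neighbours) up to 3 genes per line with the lowest FDR. Other regions of these genes, and the receptors TNFRSF8, TNFRSF25, TNFRSF10D (10A) and TNFRSF10A (DCIS), were named after their values were seen. The genes and lists were chosen with earlier results of these data known. The alternatives were other FDR limits, a fold-change minimum, larger regions, other gene assignment, stricter overlap and other motif windows. Python 3.11.15, pandas 2.3.3, numpy 2.4.6, pysam 0.24.0 and matplotlib 3.10.9 were used. The code for calls, covered bases and the AP-1 match was checked on simulated data, and the code that chose the regions was not. One marker gene is not reported here.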

Additional observations from a re-analysis of the deposited data

How the results depend on the processing

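No paired analysis was possible because the tables hold 1 value per region for whole groups, and for the same reason no library could be left out. Of 66 recomputed counts that were above 0, 44 stayed within 1.5 times of the reported value and 22 moved. Another 32 were counts of 0 that stayed at 0 and say little about stability. The 8 raised regions in 10A became 3 at an FDR under 0.01, 3 with a log2 fold change of 1 or more in size, 1 with at least 1 above the median, and 4 when regions were kept only in the GENCODE gene or 5 kb upstream. The 8 in DCIS became 5 at an FDR under 0.01, 4 with at least 5 windows and 4 by GENCODE gene. In the chromosome 9 locus the 4 in 10A became 1, 2 and 1 at an FDR under 0.01, with the fold-change minimum and with the median margin, and the 3 in DCIS became 1 with at least 5 windows. At an enrichment FDR under 1e-10, enriched regions fell to 0 from 3 in 10A shCTRL and to 2 from 4 in DCIS shCTRL cells. Of the raised regions in 10A, those on a region enriched in shANCO1 cells fell to 1 where 50% had to be covered. Those on a shCTRL region fell to 0 where 50% had to be covered and to 0 at the stricter FDR, and in DCIS those on a shANCO1 region fell to 0 where 50% had to be covered. In 200 bp, regions with a match fell to 2 for AP-1 and 3 for TEAD in 10A and to 1 for AP-1 in DCIS. Over whole regions, DCIS had 7 for TEAD and 2 for NF-κB. The region nearest the start site in place of that with the lowest FDR kept its side of the threshold in 6 of 12 choices and lost the call in 6: TNC at 0.53 in 10A and 0.76 in DCIS, TNFSF10 in DCIS at 1.09, TNFSF9 in DCIS at 0.56, and TNFSF4 at 0.02 in 10A and 0.37 in DCIS. The 6 kept choices say little about stability. At TNFSF8 in both lines, TNFSF15 in DCIS and TNFSF10 in 10A, both choices gave the same region. At TNFSF15 and TNFSF9 in 10A, neither region was called. Wherever a called region was replaced by a different one, the call was lost. The tighter conditions keep fewer regions by construction.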

Other observations

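Genes beside the chromosome 9 locus, or overlapping it in the case of DELEC1, also had regions with higher H3K27Ac in shANCO1 cells. Of 8 neighbours (WHRN, ATP6V1G1, TMEM268, AKNA, COL27A1, DELEC1, PAPPA and ASTN2), 8 in 10A and 5 in DCIS had at least 1 such region, and 1 in DCIS had one that was lower, where 74.3% and 32.2% of all genes had at least 1 higher region and 7.16% of genes in DCIS had a lower one. By regions this was 23 of 53 in 10A (43.4%, against 43.6% of all regions) and 7 of 21 in DCIS (33.3%, against 23.6%), with median log2 fold changes of 0.79 and 0.75. These counts are not separate from the locus. All 4 TNC regions in 10A and all 5 in DCIS, of which 2 and 1 were higher, also name DELEC1 and are counted again here. COL27A1, a fibrillar collagen gene, had the lowest FDR in both lines, with a log2 fold change of 1.77 in 10A (FDR = 4.79e-08, 3 of 9 regions higher) and 1.97 in DCIS (FDR = 8.62e-05). In 10A it was followed by ASTN2 (1.37, FDR = 0.00147, 8 of 15 regions higher) and ATP6V1G1, a subunit of the vacuolar proton pump (1.18, FDR = 0.00609). In DCIS it was followed by PAPPA, a protease that cleaves binding proteins of insulin-like growth factors (1.91, FDR = 0.000318), and DELEC1 (1.45, FDR = 0.00048, 3 of 7 regions higher). The PAPPA region with this value overlaps no annotated gene.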
